A study of Mus musculus with 6 samples.

Results

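*Fbln7*, *Corin*, *Prss8* and *Cfap52* are 4 protein-coding genes that lay near or under 1 CPM (reads scaled to the size of the library) in control osteoclast cultures and several fold higher in cultures that overexpressed HES1. They were chosen by that level and that rise, among 55573 genes in the count files and 16954 genes with at least 10 counts over the 6 libraries, a minimum that all 4 passed. The rise between the groups is therefore given as a description, with counts, spread and standard errors (SE) but no test.

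RNA-Seq was performed on 3 control and 3 Rosa-Hes1 cultures of bone marrow-derived macrophages (BMMs) from 10-week-old male mice, differentiated for 4 days with macrophage colony-stimulating factor (M-CSF) at 30 ng/ml plus RANKL, the cytokine that drives osteoclast formation, at 10 ng/ml. Rosa-Hes1 mice were *Ctsk* Cre/WT;*Rosa* Hes1, in which Cre expressed from the *Ctsk* locus excised a STOP cassette and so allowed HES1 to be made from the *Rosa26* locus. The controls, wild type by their labels, were littermates without Cre that carried *Rosa* [STOP]Hes1 according to the methods, so that Cre and HES1 overexpression were not separated by a group of their own. *Ctsk* is itself induced during osteoclast differentiation, and RNA was taken from whole cultures, in which differentiated osteoclasts lie among precursors. The labels call the libraries of a group biological replicates but do not tie each to a mouse. The p-values below therefore set the difference between the groups against the spread between these libraries only.

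HES1 is a transcriptional repressor of the basic helix-loop-helix class and a target of Notch signaling. None of the 4 genes is a classical osteoclast marker. *Fbln7* encodes fibulin-7, a secreted adhesion protein of the extracellular matrix first known from developing teeth. *Corin* and *Prss8* encode trypsin-like serine proteases held at the cell surface. Corin cleaves the precursor of atrial natriuretic peptide in the heart, and prostasin, the product of *Prss8*, acts in epithelia, where it regulates the epithelial sodium channel. *Cfap52* encodes a WD-repeat protein of the axoneme, the microtubule core of motile cilia and sperm tails.

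The assigned counts per library were between 13038362 and 15956331. *Hes1*, the overexpressed gene, had 7, 9 and 4 counts in the control libraries and 75, 74 and 95 in the Rosa-Hes1 libraries, or 0.456 ± 0.141 and 5.56 ± 1.17 CPM (SD, n = 3), so that each library fitted its label. On a first principal component holding 49.4% of the variance, Rosa-Hes1 replicate 2 lay at 3.29, nearest to the controls, against 29.2 and 28.9 for the other Rosa-Hes1 libraries, and control replicate 1 lay at -32.6, against -14.0 and -14.7 for the other controls. Of the genes tested with edgeR, 991 were higher and 408 lower in Rosa-Hes1 cultures at an adjusted p under 0.05, which is 5.85% and 2.41% of those tested, or 8.25% together. All 22 osteoclast and macrophage markers examined were detected. In this list 13 were higher and 0 lower, among them *Tcirg1* (log2 fold change 0.62 ± 0.07 SE, edgeR adjusted p = 0.00550), *Itgb3* (0.78 ± 0.10, adjusted p = 0.00566), *Clcn7* (1.08 ± 0.14, adjusted p = 0.00659) and *Atp6v0d2* (0.72 ± 0.10, adjusted p = 0.00758). *Mmp9*, the most abundant marker, was also higher (0.73 ± 0.11, adjusted p = 0.00997). The 9 markers not called included *Ctsk* (0.08 ± 0.11, adjusted p = 0.709). Of the macrophage markers, *Cd68* was called higher (0.52 ± 0.09, adjusted p = 0.0142) and *Csf1r* was not called (0.25 ± 0.07, adjusted p = 0.0554). *Adgre1* (-0.16), *Mrc1* (-0.15), *Cd14* (-0.09), *Fcgr1* (-0.37) and *Lyz2* (-0.15) were not called either, so most macrophage markers did not share the rise. Leaving out control replicate 1 left 8 higher, leaving out replicate 3 of either group left 7, and leaving out Rosa-Hes1 replicate 1 left 4. The summed level of this list was between 21617 and 25018 CPM in controls and between 28671 and 33426 CPM in Rosa-Hes1 libraries. The part of this difference in the levels of the 4 genes was not tested. In whole cultures, fewer cells of a type and less RNA per cell cannot be told apart.

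*Corin* and *Prss8* share the catalytic fold of trypsin, and the coding sequence around the catalytic serine is shown for both. The 57 bases below were read from the GENCODE transcripts (GRCm38), 5′ to 3′ on the coding strand, with the codon of the catalytic serine in capitals. The *Prss8* stretch lies on the minus strand at chr7:127926605-127926765 and joins exons 5 and 6 of 6, with the codon at residue 238 of 339. The *Corin* stretch, also on the minus strand, lies at chr5:72301645-72302811 and joins exons 21 and 22 of 22, with the codon at residue 1052 of 1113.
Prss8: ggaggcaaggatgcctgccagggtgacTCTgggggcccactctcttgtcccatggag
Corin: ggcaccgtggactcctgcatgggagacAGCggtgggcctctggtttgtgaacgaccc
Of the 57 positions, set side by side on the serine codon, 29 were identical (50.9%), a share that describes this stretch only. The serine is written with different codons, TCT in *Prss8* and AGC in *Corin*.

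HES proteins are known to bind the N box (CACNAG) and class C sites (CACGNG), and the promoters of the genes that moved with *Hes1* are shown for that reason. The 250 bases before the transcription start are RefSeq sequence of build GRCm38.p6, 5′ to 3′ on the strand of the gene, with every match to either motif on either strand in capitals. RefSeq windows were held for *Fbln7* (plus strand, chr2:128863682-128863931), *Corin* (minus strand, chr5:72504541-72504790) and *Cfap52* (minus strand, chr11:67965643-67965892). The *Fbln7* window is intronic in the GENCODE annotation, which starts the gene further upstream, and 9 bases of the *Cfap52* window are exonic there. The *Corin* window does not reach the GENCODE gene, which starts at position 72504473, further downstream.
Fbln7: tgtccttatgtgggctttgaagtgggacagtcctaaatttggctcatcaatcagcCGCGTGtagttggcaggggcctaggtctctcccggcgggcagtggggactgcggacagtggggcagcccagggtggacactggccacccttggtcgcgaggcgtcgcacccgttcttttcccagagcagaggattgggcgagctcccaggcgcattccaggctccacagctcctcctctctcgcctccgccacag
Corin: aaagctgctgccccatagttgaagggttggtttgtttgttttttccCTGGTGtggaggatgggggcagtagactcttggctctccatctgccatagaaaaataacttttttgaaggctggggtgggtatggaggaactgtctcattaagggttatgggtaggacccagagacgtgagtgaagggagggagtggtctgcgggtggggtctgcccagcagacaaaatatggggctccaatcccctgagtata
Cfap52: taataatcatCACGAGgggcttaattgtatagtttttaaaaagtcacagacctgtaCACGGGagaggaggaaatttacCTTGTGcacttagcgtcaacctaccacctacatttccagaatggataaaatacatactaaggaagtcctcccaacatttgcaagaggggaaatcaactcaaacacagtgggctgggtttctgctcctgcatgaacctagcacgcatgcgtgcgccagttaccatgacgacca
The *Fbln7* window held 1 class C site, on the minus strand, and the *Corin* window 1 N box, also on the opposite strand to the gene's direction. The *Cfap52* window held 2 N boxes and 2 class C sites, of which CACGAG is counted as both. Such short motifs are common. Over 32851 RefSeq windows of this length, 36.7% held an N box, 23.5% a class C site, 49.4% either and 10.8% both. The matches describe the letters in these windows and not binding, which was not measured.

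*Fbln7* had the widest gap between the groups of the 4 genes. The gene lies at chr2:128862981-128897034 on the plus strand (ENSMUSG00000027386) and no exon is shared with another gene. Its counts were 9, 15 and 18 in the control libraries and 122, 101 and 100 in the Rosa-Hes1 libraries. After scaling by the trimmed mean of M-values (TMM), these were 0.664, 0.928 and 1.33 CPM in controls and 8.05, 6.59 and 7.27 CPM in Rosa-Hes1 cultures. The groups did not overlap, and the lowest Rosa-Hes1 library was 4.95 times the highest control. Control libraries averaged 0.974 ± 0.336 CPM and Rosa-Hes1 libraries 7.30 ± 0.729 CPM (SD, n = 3 each), a log2 fold change of 2.90 ± 0.25 (SE). The pooled counts, 323 against 42, gave a ratio of 7.51 per assigned read with an exact 95% interval of 5.44 to 10.6, which covers counting error only, as do all count intervals here.

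The other fibulins were detected at various levels, and none was called. *Fbln2*, which also encodes a secreted matrix protein, had 238, 118 and 99 counts in controls and 134, 197 and 57 in Rosa-Hes1 libraries, a pattern in which the groups overlapped (log2 fold change -0.31 ± 0.51 SE, edgeR adjusted p = 0.774). *Efemp2* (fibulin-4) was at 11.9 ± 1.33 and 12.6 ± 0.593 CPM. *Fbln1* and *Fbln5* were under 1 CPM on average in both groups, and *Efemp1* was seen in 1 library. Among 26 tested fibulins, hemicentins, syndecans and other matrix partners, 2 were higher and 0 lower, a share near the 5.85% higher of all genes tested, with a median log2 fold change of -0.09 beside -0.01. The 2 were *Ltbp3*, a latent TGFβ-binding protein (0.79 ± 0.11 SE, edgeR adjusted p = 0.00758), and the cell-surface proteoglycan *Sdc1* (0.39 ± 0.09, adjusted p = 0.0345). The call for *Sdc1* was lost when any library other than Rosa-Hes1 replicate 2 was left out (adjusted p = 0.0597 to 0.133), and with the replicate number as a block (0.0602). *Sdc3*, the most abundant gene of the list, was at 704 and 720 CPM (adjusted p = 0.921).

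*Corin* had the highest counts of the 4 genes and the widest spread in Rosa-Hes1 libraries. It lies at chr5:72300025-72504473 on the minus strand (ENSMUSG00000005220). Control libraries held 10, 30 and 19 counts and Rosa-Hes1 libraries 192, 73 and 130. The levels were 0.738, 1.86 and 1.40 CPM in controls and 12.7, 4.76 and 9.45 CPM in Rosa-Hes1 cultures. Every Rosa-Hes1 library lay above every control, but Rosa-Hes1 replicate 2 was at 53.2% of its group mean and only 2.56 times the highest control. The mean went from 1.33 ± 0.563 to 8.96 ± 3.97 CPM (SD, n = 3 each), a log2 fold change of 2.72 ± 0.43 (SE), which was 3.03 without Rosa-Hes1 replicate 2. The ratio of pooled counts was 6.54 (exact 95% interval 4.97 to 8.75).

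*Prss8* had the fewest counts of the 4 genes, 96 over the 6 libraries. It lies at chr7:127925716-127930104 on the minus strand (ENSMUSG00000030800). The counts were 3, 6 and 3 in controls and 29, 24 and 31 in Rosa-Hes1 libraries. Scaled levels were 0.221, 0.371 and 0.222 CPM in controls and 1.91, 1.57 and 2.25 CPM in Rosa-Hes1 cultures. The groups did not overlap, with the lowest Rosa-Hes1 library at 4.22 times the highest control. The averages were 0.272 ± 0.0865 CPM in controls and 1.91 ± 0.344 CPM in Rosa-Hes1 cultures (SD, n = 3 each), a log2 fold change of 2.75 ± 0.35 (SE). With 12 control counts in all, the exact 95% interval of the count ratio of 6.84 ran from 3.72 to 13.8.

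Most relatives of these proteases had few counts or none. Of 22 other membrane-anchored serine proteases, 10 had no count in any library and 6 had enough counts to be tested. By edgeR 0 of the 6 were called, 1 had an unadjusted p under 0.05, and DESeq2 and limma-voom also called 0, although 1 was called without Rosa-Hes1 replicate 2. Of all genes tested 8.25% were called, a share at which 6 genes can hold 0 calls. A mean under 1 CPM was found for 3 of the 6. *St14* (matriptase), the partner protease of prostasin and the most abundant of the list, was at 6.58 ± 1.34 CPM in controls and 6.92 ± 2.05 CPM in Rosa-Hes1 cultures (log2 fold change 0.07 ± 0.24 SE, edgeR adjusted p = 0.895). *Hpn* (hepsin) had 24, 29 and 17 counts in controls and 56, 13 and 59 in Rosa-Hes1 libraries, with Rosa-Hes1 replicate 2 below all the controls (edgeR adjusted p = 0.357).

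Substrates and receptors of the natriuretic peptide axis were scarce in the same libraries. *Nppa*, the gene of the atrial natriuretic peptide precursor that corin cleaves, had 1 count over the 6 libraries, and *Nppb* and *Nppc* had 0. The receptor gene *Npr1* had 13, 6 and 19 counts in controls and 18, 25 and 15 in Rosa-Hes1 libraries, with the groups overlapping. The corin-activating protease gene *Pcsk6* had 2 counts in all. *Furin*, a proprotein convertase and the most abundant gene of the list, was at 152 ± 3.68 and 173 ± 6.79 CPM (edgeR adjusted p = 0.100). By edgeR 0 of the 8 tested genes were called, 2 had an unadjusted p under 0.05, limma-voom called 0, and DESeq2 called 1, *Ide*, as lower. The edgeR share over all genes tested was 8.25%, at which 8 genes can hold 0 calls, and 4 of the 8 averaged under 1 CPM. A count of 1 gene, lower, was also found without control replicate 2.

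A list of 16 genes, called prostasin partners here, was written around prostasin, and 11 had enough counts to be tested. It is not limited to established substrates and partners. Besides inhibitors, it held urokinase and growth factor genes such as *Plau*, *Plaur*, *Hgf*, *Mst1r* and *Met*. A link of the list to prostasin was not tested. Of the 11 tested genes, 5 were higher and 1 lower, beside 5.85% and 2.41% of all genes tested. Their median log2 fold change was 0.49, beside -0.01. DESeq2 called the same 6 genes, and limma-voom all of them but *Mst1r*. The protease inhibitor gene *Serpine2* had 357, 462 and 253 counts in controls and 909, 955 and 833 in Rosa-Hes1 libraries (log2 fold change 1.31 ± 0.14 SE, edgeR adjusted p = 0.00513). *Spint2*, which encodes the hepatocyte growth factor activator inhibitor HAI-2, had 145, 199 and 161 counts in controls and 335, 242 and 308 in Rosa-Hes1 libraries (0.78 ± 0.15, adjusted p = 0.0189). The urokinase gene *Plau* rose (0.44 ± 0.07, adjusted p = 0.0114), and its receptor gene *Plaur* fell (-0.42 ± 0.10, adjusted p = 0.0399). The receptor tyrosine kinase genes *Egfr* (0.71 ± 0.16, adjusted p = 0.0309) and *Mst1r*, the most abundant gene of the list (0.60 ± 0.14, adjusted p = 0.0412), also rose. The *Serpine2* call held under all 13 alternatives, whereas *Mst1r* lost its call in 7 of 13, including limma-voom (adjusted p = 0.0564) and no count filter (edgeR adjusted p = 0.0689), and *Plaur* lost its call when replicate number was blocked (0.0594). A total of 2 genes was called when library 1 or library 3 of either group was left out and 4 without control replicate 2. The sodium channel subunit gene *Scnn1a* was at 1.20 ± 0.188 and 1.23 ± 0.317 CPM, and *Scnn1b* and *Scnn1g* had 0 counts.

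By coefficient of variation, *Cfap52* had the tightest Rosa-Hes1 libraries (4.12%) and the most variable controls (68.1%) of the 4 genes. It lies at chr11:67924806-67965651 on the minus strand (ENSMUSG00000020904). Its counts were 2, 10 and 4 in controls and 44, 41 and 38 in Rosa-Hes1 libraries. The levels were 0.148, 0.619 and 0.296 CPM in controls and 2.90, 2.67 and 2.76 CPM in Rosa-Hes1 cultures. The groups did not overlap, and the lowest Rosa-Hes1 library was 4.32 times the highest control. From 0.354 ± 0.241 CPM the mean rose to 2.78 ± 0.114 CPM (SD, n = 3 each), a log2 fold change of 2.90 ± 0.40 (SE). This value turned on the 10 counts of control replicate 2, without which it was 3.60, a fold of 12.1 in place of 7.45. The ratio of pooled counts was 7.51 (exact 95% interval 4.45 to 13.6).

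Other genes of the axoneme were examined in the same fit. Of 87 motile cilium genes found in the files, 20 had no count in any library and 35 were tested, of which 1 was higher and 0 lower by edgeR, while DESeq2 called 2 and limma-voom 3. The count was also 2 when Rosa-Hes1 replicate 2 or Rosa-Hes1 replicate 3 was left out. The gene called, *Cfap45*, also encodes an axonemal protein, and had 108, 150 and 112 counts in controls and 385, 286 and 276 in Rosa-Hes1 libraries (log2 fold change 1.33 ± 0.14 SE, edgeR adjusted p = 0.00513, and called under all 13 alternatives). *Foxj1*, the master transcription factor gene of motile ciliogenesis, had 3, 2 and 6 counts in controls and 9, 5 and 10 in Rosa-Hes1 libraries (adjusted p = 0.277). The dynein heavy chain gene *Dnah5* had 0 counts. *Cfap20*, the most abundant gene of the list, had a log2 fold change of 0.02 ± 0.08 (adjusted p = 0.908). The median log2 fold change of the tested motile cilium genes was 0.12, beside -0.01 for all genes tested. The shares called over all genes, 5.85% higher and 2.41% lower, are near this count, so nothing particular to cilium genes is read from it.

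All 34 genes of intraflagellar transport and the BBSome, machinery that primary and motile cilia share, were tested. *Dync2h1*, the heavy chain of the retrograde motor, rose (log2 fold change 0.88 ± 0.14 SE, edgeR adjusted p = 0.00997), and *Ift57* fell (-0.41 ± 0.09, adjusted p = 0.0346). DESeq2 and limma-voom each called 1 higher and 2 lower. At an unadjusted p under 0.05, 1 was higher and 6 were lower by edgeR, and 2 were higher and 7 lower by limma-voom. With the replicate number as a block the *Ift57* call was lost (edgeR adjusted p = 0.0599). The calls numbered 0 when Rosa-Hes1 replicate 1 was left out, and 1 when Rosa-Hes1 replicate 3 or any of the controls was. *Kif3b*, a subunit of the anterograde motor, was the most abundant gene of the list. The median of the list was -0.07, and its count is set beside 5.85% higher and 2.41% lower over all genes.

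**Figure D1:**
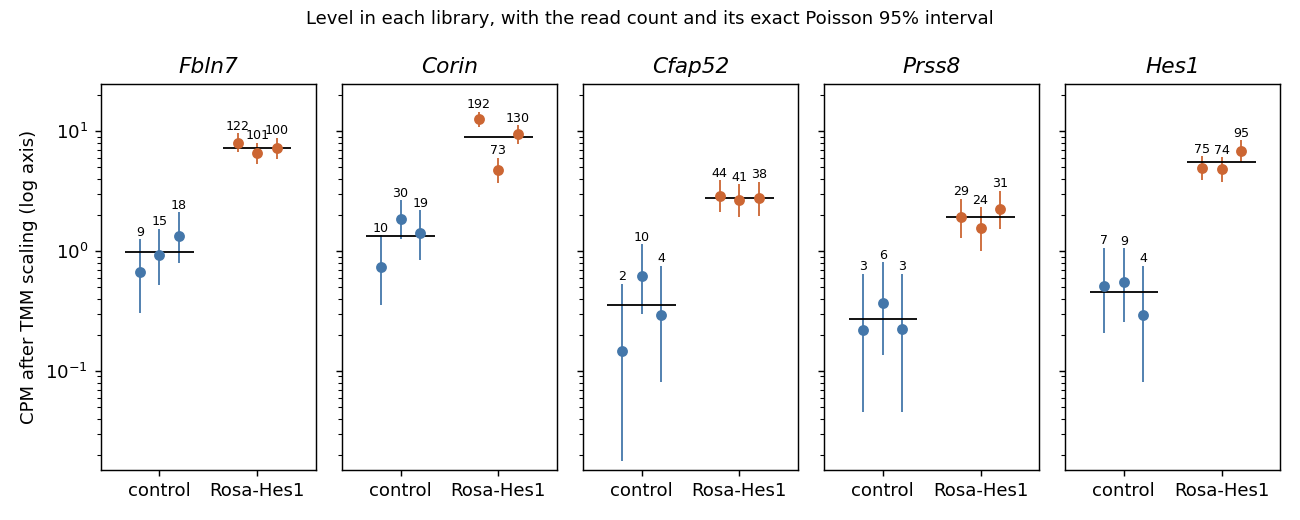
TMM-scaled CPM on a log axis for *Fbln7*, *Corin*, *Cfap52*, *Prss8* and *Hes1* in 3 control (blue) and 3 Rosa-Hes1 (orange) libraries, with the read count above each point, its exact 95% Poisson interval as a bar and the group mean as a line. Within each gene the Rosa-Hes1 points lie above the control points, and *Corin* shows the widest Rosa-Hes1 spread, from 4.76 to 12.7 CPM.

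In each of the 4 genes every Rosa-Hes1 library lay above every control library. The same was true of 16.6% of all genes tested and of 13.3% of the 2691 tested protein-coding genes with a control mean under 2 CPM, and since the genes were chosen by this contrast nothing further is read from it. Among those 2691 genes, 2.64% were called higher by edgeR and 0% lower, and 2.71% were at least 4-fold higher. Over all genes tested 0.737% were at least 4-fold higher. The limit on the control mean, with the minimum of 10 counts, itself keeps low genes that rise and drops those that fall, so these shares are given as the background of the 4 genes only, and the higher and lower sides are not compared.

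The 4 genes were close to the top of the low-abundance genes, but not at it. Among 659 protein-coding genes with a control mean under 2 CPM and a mean of at least 1 CPM over the 6 libraries, *Cfap52*, *Fbln7*, *Prss8* and *Corin* took ranks 6, 7, 8 and 9 by log2 fold change. The second limit favors genes that rise, since a gene this low in controls reaches it more easily when it goes up. Without that limit the ranks were 23, 24, 27 and 29 of 2691. Above the 4 genes were *Rnase2a* (4.74 ± 1.40 SE), *Egln3* (4.12 ± 1.21), *Hes1* (3.57 ± 0.30), *Mgarp* (3.37 ± 0.94) and *Mcoln3* (3.27 ± 0.63), and just below them was *Rnf43* (2.64 ± 0.49).

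**Figure D2:**
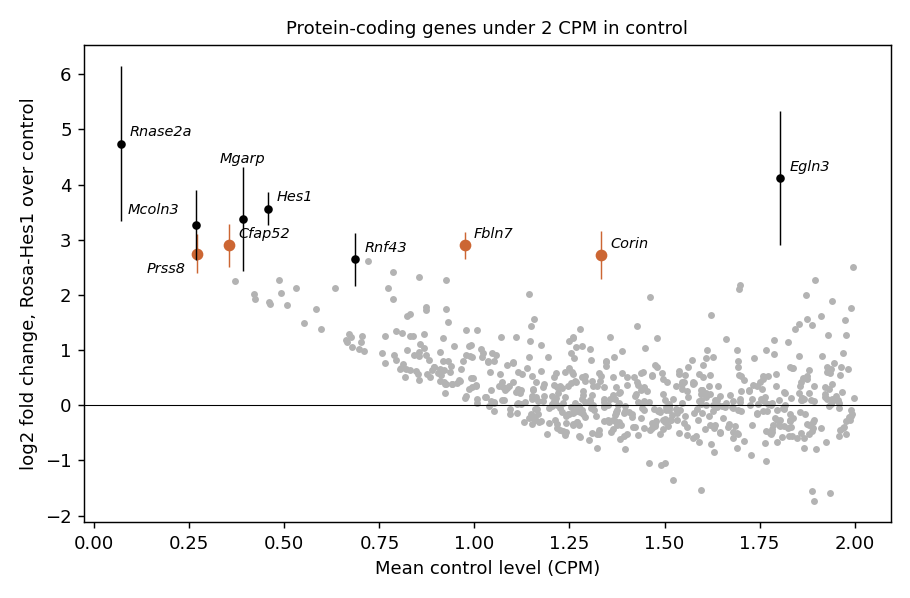
Mean control level in CPM against the log2 fold change of Rosa-Hes1 over control for 659 protein-coding genes with a control mean under 2 CPM and a mean of at least 1 CPM, with the 4 genes in orange, the genes next to them by rank in black and bars for the SE. The empty lower left corner is made by the minimum mean of 1 CPM, and the 4 genes lie between 2.72 and 2.90.

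The Rosa-Hes1 libraries lay closer together in 3 of the 4 genes than in most of the genes ranked above them. *Rnase2a*, the gene of an eosinophil-associated ribonuclease, had 0, 1 and 2 counts in controls and 61, 32 and 1 in Rosa-Hes1 libraries, so that the groups overlapped. *Egln3*, the gene of a prolyl hydroxylase induced by hypoxia, had 15, 23 and 39 counts in controls and 846, 47 and 479 in Rosa-Hes1 libraries. In that gene Rosa-Hes1 replicate 2 was at 9.82% of the group mean, and in *Mgarp*, a mitochondrial protein gene, at 14.2%. By contrast the Rosa-Hes1 libraries lay between 96.2% and 104% of their mean in *Cfap52*, between 90.2% and 110% in *Fbln7* and between 82.0% and 118% in *Prss8*. *Corin* ranged from 53.2% to 141%. Such closeness was not particular to the 4 genes. *Hes1*, ranked above them, lay between 86.8% and 124%, and *Mapk8ip1*, ranked below them, between 92.9% and 107%. By CPM, Rosa-Hes1 replicate 2 was the lowest Rosa-Hes1 library in each of the 4 genes, whose log2 fold changes without it were 2.97 for *Fbln7*, 3.03 for *Corin*, 2.88 for *Prss8* and 2.93 for *Cfap52*.

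**Figure D3:**
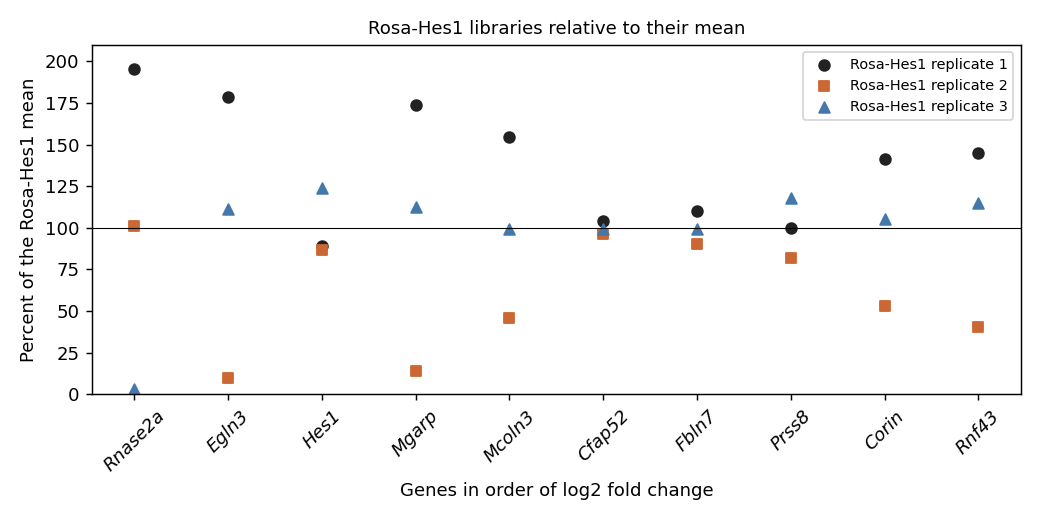
Level of each Rosa-Hes1 library as a percent of the mean of the 3 Rosa-Hes1 libraries, for the 10 low-abundance genes with the highest log2 fold change, in that order. *Cfap52*, *Fbln7* and *Prss8* lie close to 100%, while replicate 2 (squares) falls to 9.82% in *Egln3* and 53.2% in *Corin*.

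The spread was also set against counting noise, as the chi-square of the counts against the library totals divided by its degrees of freedom. When libraries differ only by sampling of reads this value averages 1, but for 3 libraries it varies widely. In Rosa-Hes1 libraries it was 0.794 for *Fbln7*, 0.759 for *Prss8* and 0.0331 for *Cfap52*, compared with medians of 1.83, 1.42 and 1.59 for tested genes with counts within a factor of 1.5. The *Cfap52* value was low beside such genes, of which 1.97% of 1168 were lower. Read sampling alone gives some values this low, so nothing further is read from it. For *Corin* it was 25.1, higher than in 97.1% of 1394 genes of like count, whose median was 1.98. In controls the values were 1.41 for *Fbln7*, 3.21 for *Corin*, 0.398 for *Prss8* and 2.31 for *Cfap52*. With TMM-scaled totals the Rosa-Hes1 values were 1.11 for *Fbln7*, 0.904 for *Prss8*, 0.0717 for *Cfap52* and 26.9 for *Corin*. The spread of *Corin* in Rosa-Hes1 libraries was thus larger than in most genes of like count. For the other 3 genes, 3 libraries are too few for a value near or under 1 to show that no further spread was present.

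Levels can be compared between the genes only per length. Per kilobase of exon, the Rosa-Hes1 means were 2.26 CPM for *Fbln7* (range 2.04 to 2.49), 1.66 for *Corin* (0.882 to 2.34), 1.20 for *Cfap52* (1.15 to 1.25) and 1.03 for *Prss8* (0.845 to 1.22). *Fbln7* lay above *Cfap52* and *Prss8* in every Rosa-Hes1 library, but neighbors in this order overlapped. In controls the means per kilobase were 0.302, 0.247, 0.153 and 0.147 CPM in the same order, and the ranges overlapped except those of *Fbln7* and *Prss8*. *Hes1* itself was at 2.73 CPM per kilobase in Rosa-Hes1 cultures.

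The profile over the 6 libraries was compared with that of 11284 protein-coding genes, as the root mean square difference of log2(CPM + 0.5) after centering. *Fbln7* was closest to *Lims2* (0.245), *Dusp8* (0.254) and *Ndrg4* (0.280). *Corin* was closest to *Ndrg4* (0.234), *Mustn1* (0.260) and *Arvcf* (0.303). *Prss8* was closest to *Angpt4* (0.0733), *Cgref1* (0.128) and *Fbxl16* (0.146). *Cfap52* was closest to the angiopoietin gene *Angpt2* (0.180), *Mapk8ip1* (0.213) and *Angpt4* (0.217). *Angpt4*, which encodes another angiopoietin and came up for both, had 0.664, 0.990 and 0.665 CPM in controls and 3.56, 3.13 and 3.63 CPM in Rosa-Hes1 cultures. These distances share the same 6 libraries, and the 4 genes were 0.251 (*Prss8* and *Cfap52*) to 0.511 (*Corin* and *Prss8*) from each other.

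Genes next to the 4 genes on the chromosome were examined for the same contrast. Of 23 annotated genes examined that overlapped one of the 4 or lay within 50 kb, 13 had enough counts to be tested. By edgeR 0 were higher and 1 lower, beside 5.85% and 2.41% of all genes tested, a share at which fewer than 1 of 13 would be higher. At an unadjusted p under 0.05, 1 was higher and 3 were lower. DESeq2 called 0 higher and 2 lower, and limma-voom 0 higher and 3 lower. *Stx8*, which starts 542 bases from *Cfap52* on the other strand, had 460, 579 and 432 counts in controls and 611, 509 and 592 in Rosa-Hes1 libraries (log2 fold change 0.19 ± 0.11 SE, edgeR adjusted p = 0.300). *Usp43*, on the other side of *Cfap52*, had between 1 and 3 counts in each library. *Tmem87b* (-0.11 ± 0.12, adjusted p = 0.620) and *Zc3h8* (-0.15 ± 0.13, adjusted p = 0.538) flank *Fbln7*.

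Beside *Corin*, *Nfxl1* fell (log2 fold change -0.47 ± 0.11 SE, edgeR adjusted p = 0.0395), while *Atp10d* did not pass the test (-0.28 ± 0.08, adjusted p = 0.0713). The *Nfxl1* call was lost with the replicate number as a block and when library 1 or library 3 of either group was left out, while leaving out Rosa-Hes1 replicate 2 gave 2 calls among the neighbors. Near *Prss8*, *Prss36*, a protease gene 2534 bases from *Prss8* on the same strand, had 19, 22 and 21 counts in controls and 32, 36 and 28 in Rosa-Hes1 libraries (0.59 ± 0.23, adjusted p = 0.143). The *Kat8* gene overlaps the end of *Prss8* on the opposite strand over 122 exon bases, 6.59% of the *Prss8* exons, and was at 19.4 ± 1.09 and 15.4 ± 0.0603 CPM (adjusted p = 0.0592), in the opposite direction to *Prss8*. The other tested neighbors did not pass the test, with log2 fold changes of -0.08 ± 0.07 for *Bckdk* (edgeR adjusted p = 0.501), -0.19 ± 0.10 for *Zfp668* (0.280), 0.01 ± 0.08 for *Zfp646* (0.984) and -0.19 ± 0.30 for *Vkorc1* (0.762) near *Prss8*, and -0.65 ± 0.60 for *Gm43815* (0.561) near *Corin*. In *Corin* 2.72% and in *Cfap52* 8.36% of exon bases are shared with a gene on the opposite strand, and these partners had 0 and 2 counts in all. The strand setting of the counting was not given in the sources used here.

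**Figure D4:**
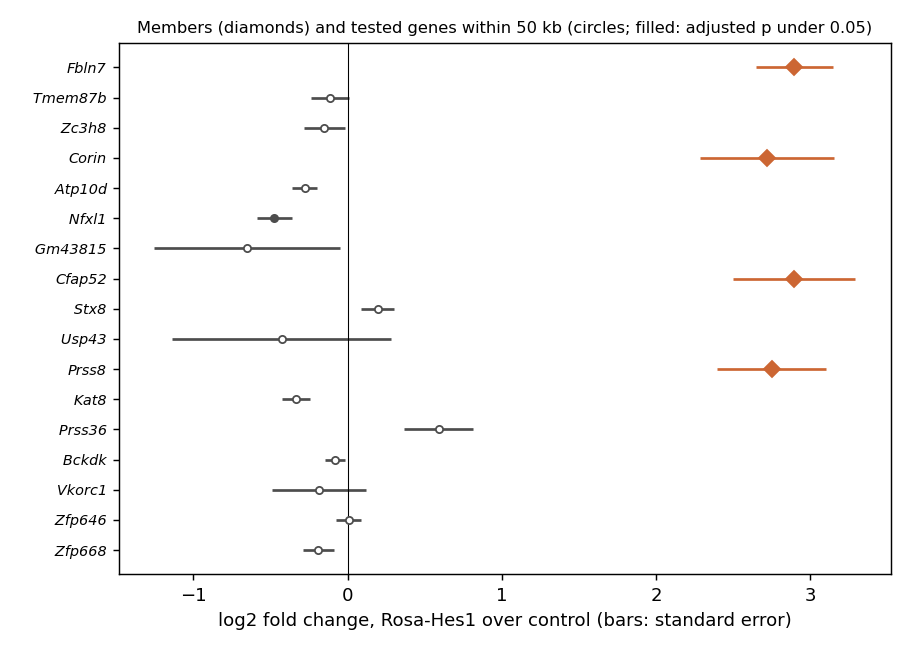
Log2 fold change of Rosa-Hes1 over control with its SE for the 4 genes (orange diamonds) and the 13 tested genes within 50 kb, listed under the gene they adjoin (circles, filled where the edgeR adjusted p was under 0.05). The 4 genes lie between 2.72 and 2.90, and no neighbor lies above 0.59.

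Markers of cells in which these genes are best known were examined in the same libraries. Of 16 epithelial markers 6 had no count in any library, among them the keratins *Krt5*, *Krt8* and *Krt14* and the claudins *Cldn3* and *Cldn4*. Their summed level was between 5.75 and 6.81 CPM in controls and between 7.37 and 8.90 CPM in Rosa-Hes1 libraries, and so did not overlap between the groups. Of single genes tested, 16.6% also had every Rosa-Hes1 library above every control. Most of the summed level was *Krt7*, with 46, 74 and 53 counts in controls and 84, 76 and 78 in Rosa-Hes1 libraries (edgeR adjusted p = 0.157). By edgeR 0 of the 3 tested epithelial genes were called, with 1 at an unadjusted p under 0.05, and DESeq2 and limma-voom called 0. With 5.85% higher and 2.41% lower over all genes tested by edgeR, 3 genes can hold 0 calls. The part of these cells in the level of *Prss8* was not tested.

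Of 12 cardiac muscle markers 6 had no count, including *Actc1*, *Gata4*, *Myh7* and *Nkx2-5*, and the sum was between 3.32 and 4.95 CPM in controls and between 3.03 and 5.60 CPM in Rosa-Hes1 libraries. The 18 markers of stroma, bone and cartilage summed to 564, 213 and 207 CPM in controls and 330, 440 and 133 CPM in Rosa-Hes1 libraries, mostly collagen genes, with *Col1a1* the most abundant. The 2 groups overlapped in this sum, and *Dmp1* and *Sost* had 0 counts. The part of these cells in the levels of *Fbln7* and *Corin* was not tested. By edgeR, DESeq2 and limma-voom 0 of the 4 tested cardiac and 0 of the 13 tested stromal genes were called, and 0 had an unadjusted p under 0.05. Beside 5.85% higher and 2.41% lower of all genes tested by edgeR, lists this short can hold 0 calls. Nothing about these cells is read from the 0 calls.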

How the data were processed

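The files held counts of reads per Ensembl gene that the authors deposited, 1 file per library. By the study's methods and the submitters' processing notes, RNA was sequenced as stranded mRNA libraries, reads were trimmed with Sickle and aligned with HISAT2 2.1.0, SAMtools 1.9 sorted them, Picard removed duplicates and HTSeq counted them. Duplicate removal can lower the counts of abundant genes. The notes name GRCm38, and the identifiers are mouse. Reads not assigned to a single gene (17.4% to 18.1% of each library) were left out. Among these were reads that HTSeq marked as ambiguous between genes (5.51% to 6.07% of each library).

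Symbols and positions came from GENCODE (GRCm38). Counts were tested with edgeR 4.0.16 in R 4.3.3 (TMM, robust quasi-likelihood, at least 10 counts summed over the libraries, Benjamini-Hochberg over 16954 genes, threshold 0.05, prior count 0.125), on simulated data first. The SE was derived from the test's p and degrees of freedom. DESeq2 1.42.0 and limma-voom (limma 3.58.1), other scalings and filters, a replicate block and leaving out each library were the alternatives. Intervals of counts are exact Poisson intervals and cover counting error only.

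The 4 genes, the 10 lists and the tests were chosen with earlier results of these data known. Genes named are the 4; *Hes1*; low-abundance genes ranked above them and the next one; for each list the called genes (the 4 of smallest adjusted p where over 5 were called) and the most abundant (highest mean CPM, not per length); neighbors within 50 kb with at least 10 counts, except 1 that is not reported here; and the 3 closest profiles. The 6 called prostasin partners are all named, and other named genes of the lists were chosen after their values were seen.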

Additional observations from a re-analysis of the deposited data

How the results depend on the processing

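All 4 genes were higher in Rosa-Hes1 cultures under each of 16 alternatives, with log2 fold changes of 2.70 to 3.17 for *Fbln7*, 2.39 to 3.05 for *Corin*, 2.31 to 3.06 for *Prss8* and 2.54 to 3.60 for *Cfap52*. With libraries left out in turn the ranges were 2.70 to 3.17, 2.39 to 3.05, 2.61 to 3.06 and 2.55 to 3.60. A prior count of 2 gave 2.31 for *Prss8* and 2.54 for *Cfap52*. The ranks ranged from 4 to 12 for *Fbln7*, 5 to 16 for *Corin*, 7 to 15 for *Prss8* and 3 to 14 for *Cfap52*, with no rank for *Prss8* without a Rosa-Hes1 library, where its mean fell under 1 CPM, and none for *Corin* among genes under 1 CPM in control. With TMM-scaled totals the chi-square per degree of freedom of *Cfap52* in Rosa-Hes1 libraries was 0.0717. Genes called over the whole table numbered 1399, 2178 by DESeq2, 2294 by limma-voom and 265 to 2646 with 1 library left out, the highest without Rosa-Hes1 replicate 2.

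With 1 library left out, the genes called numbered 1 to 2 among the fibulins and matrix partners, 0 to 1 among the membrane-anchored serine proteases and the natriuretic peptide axis, 2 to 5 among the prostasin partners, 1 to 2 for the motile cilium, 0 to 2 for intraflagellar transport, 4 to 14 among the osteoclast markers and 0 to 2 among the neighbors. DESeq2 called 1 gene of the natriuretic axis, 2 of the motile cilium and 2 neighbors, limma-voom 3 of the motile cilium and 3 neighbors, edgeR's own expression filter gave 2 neighbors, all of these neighbors lower, and leaving out the count filter gave 1 of the natriuretic axis.

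The labels do not say whether replicate numbers pair the libraries. Deviations of same-numbered libraries correlated at 0.000610, -0.162 and 0.379, and those of differently numbered libraries at -0.487 to 0.477. With 3 libraries per group these values cannot decide whether the libraries were paired. The paper's own DESeq2 analysis included covariates that its methods do not name. With the replicate number as a block the genes called numbered 1050 over the whole table, 1 among the fibulins and partners, 1 in the natriuretic axis, 1 for intraflagellar transport and 0 among the neighbors, with the calls for *Sdc1*, *Plaur*, *Ift57* and *Nfxl1* lost, and the 4 genes kept their direction. Levels resting on 2 to 10 control counts carry wide intervals, and changes under about the size of those intervals could not have been seen at this depth. The causes of these shifts were not tested.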
